A study of Mus musculus with 10 samples.

Results

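The genes described here encode the subunits of voltage-gated sodium and calcium channels. They are 36 listed genes, 12 for sodium and 24 for calcium channels, of 48972 genes with a count row in YFP-positive cells sorted from the spinal cord of e10.5 mouse embryos. They were taken by name, and divide into 19 pore-forming (alpha) subunits and 17 auxiliary subunits. The study asked which genes lie downstream of the Onecut (OC) transcription factors in motor neurons (MNs), and compared 5 control with 5 conditional double knockout (cdKO) samples by RNA-seq. Control cells carried Olig2-Cre+/-, Rosa26R-YFP+/-, Oc1+/Flox and Oc2+/Flox. The cdKO cells carried the same Cre and reporter alleles with Oc1-/Flox and Oc2-/Flox. Both groups thus carried the Cre and a floxed allele of each gene, and the controls could lose that copy in Cre-positive cells. The Cre and the reporter are switched on in the Olig2 lineage, so YFP marks progenitors and other descendants of that domain as well as MNs. Nothing in the labels says whether a sample is a single embryo or a pool, so the p-values below measure the spread between these samples.

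Voltage-gated sodium channels open on depolarisation and carry the rising phase of the action potential. Their alpha subunit forms the pore, and beta subunits modify its gating and its place in the membrane. High-voltage-activated calcium channels combine a pore subunit with an intracellular beta subunit and an extracellular alpha2delta subunit that bring it to the surface, whereas the T-type pores open near the resting potential and need no such partners. Spinal MNs become electrically active in the embryo, long before movement matures.

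Total counts per sample ran from 63932395 to 107709534 in controls and from 72315782 to 84249157 in cdKO. Onecut3, whose expression depends on the other OC genes, was at 0.330 to 0.682 CPM (counts scaled to library size, with edgeR's TMM factors) in controls and 0 to 0.0381 CPM in cdKO. Of the targeted genes, Onecut1 was at 2.25 to 9.94 CPM in controls and 1.03 to 4.29 CPM in cdKO, and its groups overlapped. The 7 MN markers summed to 511 to 644 CPM in controls and 280 to 745 CPM in cdKO, 6 of them above 3 counts in every sample. The 8 progenitor markers summed to 1768 to 3682 CPM over the 10 samples, so neural progenitors were present throughout the sort. Skeletal muscle markers stayed between 2.84 and 20.7 CPM and cardiac markers between 0.473 and 3.88 CPM. Both samples numbered 5 stood apart in how reads lay along the channel genes. Of 1041 exon bins of the tested channel genes, 319 had counts in cdKO replicate 5 and 427 in control replicate 5, against 554 to 704 in the other 8 samples. Bins reaching the 3′-most 1000 bases held 47.7% of channel counts in cdKO replicate 5 and 28.5% in control replicate 5, against 15.8% to 20.2% elsewhere. For the genes given sample by sample, the log2 fold change without both samples is given where it moved by over 1.5 times.

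Several sodium channel pores carry a pair of adjacent alternative coding exons of equal length (92 bases) for the same stretch of the first domain, and a transcript uses only one of them. The upstream exon is usually called neonatal and the downstream one adult. Both exons had bins of their own in 4 pores, Scn8a, Scn3a, Scn9a and Scn2a. Scn2a, Scn3a and Scn9a are closely related genes, so reads on these exons can be split wrongly between them.

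By level per kb of exon bins, auxiliary subunits held the highest places among the listed genes. The gamma genes, several of which encode partners of AMPA receptors, are counted here as auxiliary. On a scale of TMM CPM per kb of exon bins, the 5 highest means among the 36 genes all belonged to auxiliary subunits: Cacnb3 (9.02), Cacnb1 (2.30), Cacng4 (1.69), Cacna2d3 (1.64) and Scn3b (1.48). The pores followed, led by Scn8a (0.947), Scn3a (0.624), the T-type gene Cacna1g (0.520), the P/Q-type gene Cacna1a (0.513) and the T-type gene Cacna1h (0.467). Summed over each side, the auxiliary level exceeded the pore level in 10 of 10 samples, by 2.14 to 9.28 times. Cacnb3 was the highest member in 10 of 10 samples. Below it neighbours in the order changed places: Cacnb1 was above Cacng4 in 6 of 10 samples, Cacng4 above Cacna2d3 in 4, and Cacna1g above Cacna1a in 5. Reads appear to have been counted in each bin they touch, since bins of 3 bases or less also held counts, which would raise this scale for genes cut into many small bins. On each gene's longest bin alone, Cacnb3 stayed the highest (7.32) and Scn3b, Cacna1g and Cacnb1 came next (1.18, 1.13 and 1.06), while Scn8a fell to 0.078.

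**Figure D1:**
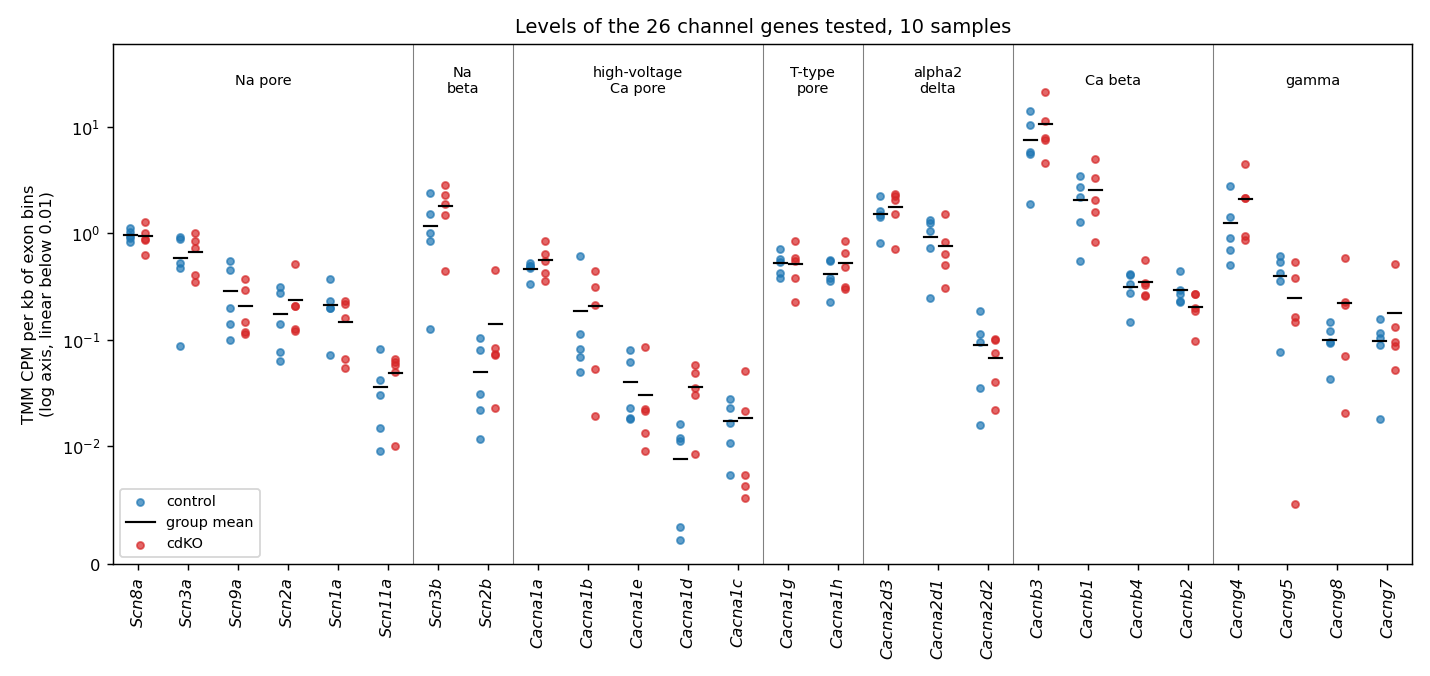
Level of the 26 channel genes tested, by class, in TMM CPM per kb of exon bins (log axis, linear below 0.01). Points are samples, control in blue and cdKO in red, and black lines are group means; Cacnb3 has the highest mean (9.02) and the means of the other genes lie between 0.0178 and 2.30, and control and cdKO points overlap in each gene.

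10 of the 36 genes did not pass the filter on low counts: Scn4a, Scn7a, Scn10a, Scn4b, Cacna1f, Cacna1s, Cacna1i, Cacna2d4, Cacng2 and Cacng3. Their highest count in any sample was between 1 and 39, and 3 of them (Scn4b, Cacna1f and Cacna1i) never exceeded 3 counts. Scn4a and Cacna1s are the skeletal muscle pores, Scn10a a pore of sensory neurons and Cacna1f the retinal L-type pore. The 26 that passed were 13 pore and 13 auxiliary subunits.

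Between control and cdKO, no channel gene passed the threshold. The quasi-likelihood test of edgeR called 0 of 26 (adjusted p under 0.05), against 0% of the 17835 genes tested. The same test did not call Onecut3 either (log2 fold change -5.08, adjusted p = 0.111 in edgeR), so a gene that was not called is not shown to be unchanged. At an unadjusted p under 0.05, 1 of 26 was higher in cdKO (4.17% of all genes) and 0 of 26 were lower (0.813% of all genes). In 0 of 26 did the groups separate without overlap in CPM (0.404% of all genes). The median log2 fold change was 0.16 over the 13 pores and 0.32 over the 13 auxiliary subunits, and -0.018 over all genes tested. Without both samples numbered 5 these medians were -0.18 and 0.081 with 0 members called. The pore median was also below 0 with scaling by library size alone (-0.075), without control replicate 3 (-0.032) and without cdKO replicate 5 (-0.087), and ran from -0.087 to 0.33 when each sample was left out, against 0.16 to 0.59 for the auxiliary median. The order of the medians was not fixed. On bins at the 3′ end the pore median was above the auxiliary one (0.50 and 0.41), as it was without cdKO replicate 3 (0.27 and 0.22). Scaling by library size alone moved the median of all genes to -0.15 and left 14 members above and 12 below 0, against 17 and 9 with TMM. DESeq2's test called 0 members and limma-voom 0 members, with 20 and 3 genes called in all. The shares over all genes at an unadjusted p under 0.05 depended on cdKO replicate 5. With all 10 samples, 743 of 17835 genes were higher in cdKO and 145 lower in edgeR. Without cdKO replicate 5 the counts were 107 higher and 318 lower of 18131. Without both samples numbered 5 they were 160 higher and 272 lower of 17891.

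**Figure D2:**
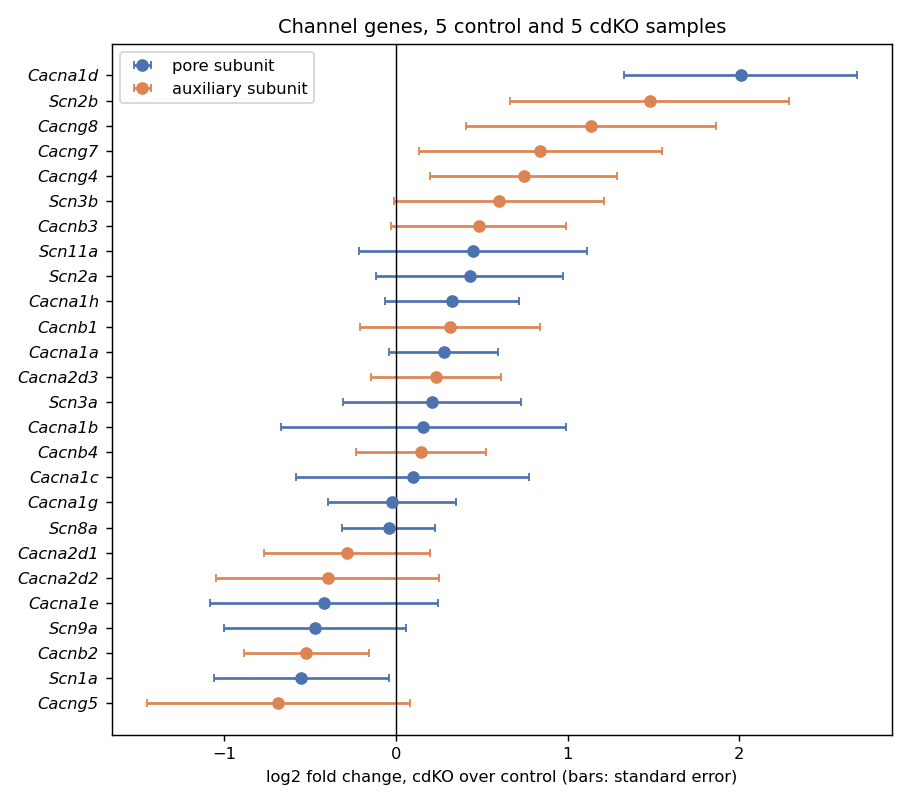
Log2 fold change (cdKO over control) of the 26 channel genes tested, with the standard error as bars, pore subunits in blue and auxiliary subunits in orange. The values run from -0.69 (Cacng5) to 2.01 (Cacna1d), and pores and auxiliary subunits are mixed along the order.

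Scn8a was the highest sodium pore and the steadiest of the named genes. It encodes the pore that later dominates at the axon initial segment and nodes (ENSMUSG00000023033, chr15:100869858-101045938, plus strand). It measured 14.1, 14.9, 13.1, 16 and 17.6 CPM in control replicates 1 to 5 and 9.8, 13.7, 13.9, 15.8 and 20.3 CPM in cdKO replicates 1 to 5. The highest sample was only 2.07 times the lowest, cdKO values lay on both sides of the controls, and the groups gave a log2 fold change of -0.043 (SE 0.27, adjusted p = 0.998 in edgeR), and a log2 fold change of -0.14 without both samples numbered 5. The whole-gene sum hid an uneven distribution. An annotated short transcript, Scn8a-210, ends at position 100961465, soon after the alternative exon pair. The 29 bins up to that point (chr15:100869858-100961465) held 74.9% of the gene's counts, and the 35 bins after it (chr15:100968596-101045938) held 25.1%. Among bins of 80 to 200 bases, 6 upstream of that end averaged 42.7 to 76.7 counts per sample, and 12 downstream averaged 1.25 to 9.08. The drop was seen in 10 of 10 samples, by 5.07 to 52.3 times, and was steepest in cdKO replicate 5 and control replicate 5.

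The upstream part gave 10.6, 11.1, 9.55, 9.53 and 15.2 CPM in control replicates 1 to 5 and 7.62, 9.43, 10.7, 10.9 and 18.7 CPM in cdKO replicates 1 to 5, highest in both samples numbered 5. The downstream part, which encodes most of the channel, gave 3.52, 3.81, 3.51, 6.49 and 2.44 CPM in controls and 2.18, 4.28, 3.22, 4.96 and 1.54 CPM in cdKO, lowest within each group in the sample numbered 5. Neither part passed the threshold between the groups: the log2 fold change was 0.034 (SE 0.308, adjusted p = 0.998 in edgeR) upstream and -0.29 (SE 0.399, adjusted p = 0.997 in edgeR) downstream. Per kb the downstream part had a mean level of 0.323, below the 0.624 of Scn3a, so the rank of Scn8a as the leading sodium pore rested on its upstream bins. The split at the short transcript was chosen after the values were seen.

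Scn3a, a pore known from embryonic neurons (ENSMUSG00000057182, chr2:65457118-65567627, minus strand), was covered along its whole length in most samples. It measured 11.5, 5.89, 6.5, 11.1 and 1.09 CPM in control replicates 1 to 5 and 5.08, 4.32, 9.14, 12.6 and 10.6 CPM in cdKO replicates 1 to 5. Control replicate 5 was lowest by a wide margin, and the groups overlapped, with a log2 fold change of 0.21 (SE 0.519, adjusted p = 0.998 in edgeR). In 8 samples 74.3% to 88.8% of its counts lay between its 3 upstream and 2 downstream bins, but 31.1% in control replicate 5 and 16.0% in cdKO replicate 5. The value of cdKO replicate 5 thus came mostly from the ends of the gene, 114 counts on the 3 upstream and 338 on the 2 downstream bins. Without both samples numbered 5 the log2 fold change was -0.18.

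**Figure D3:**
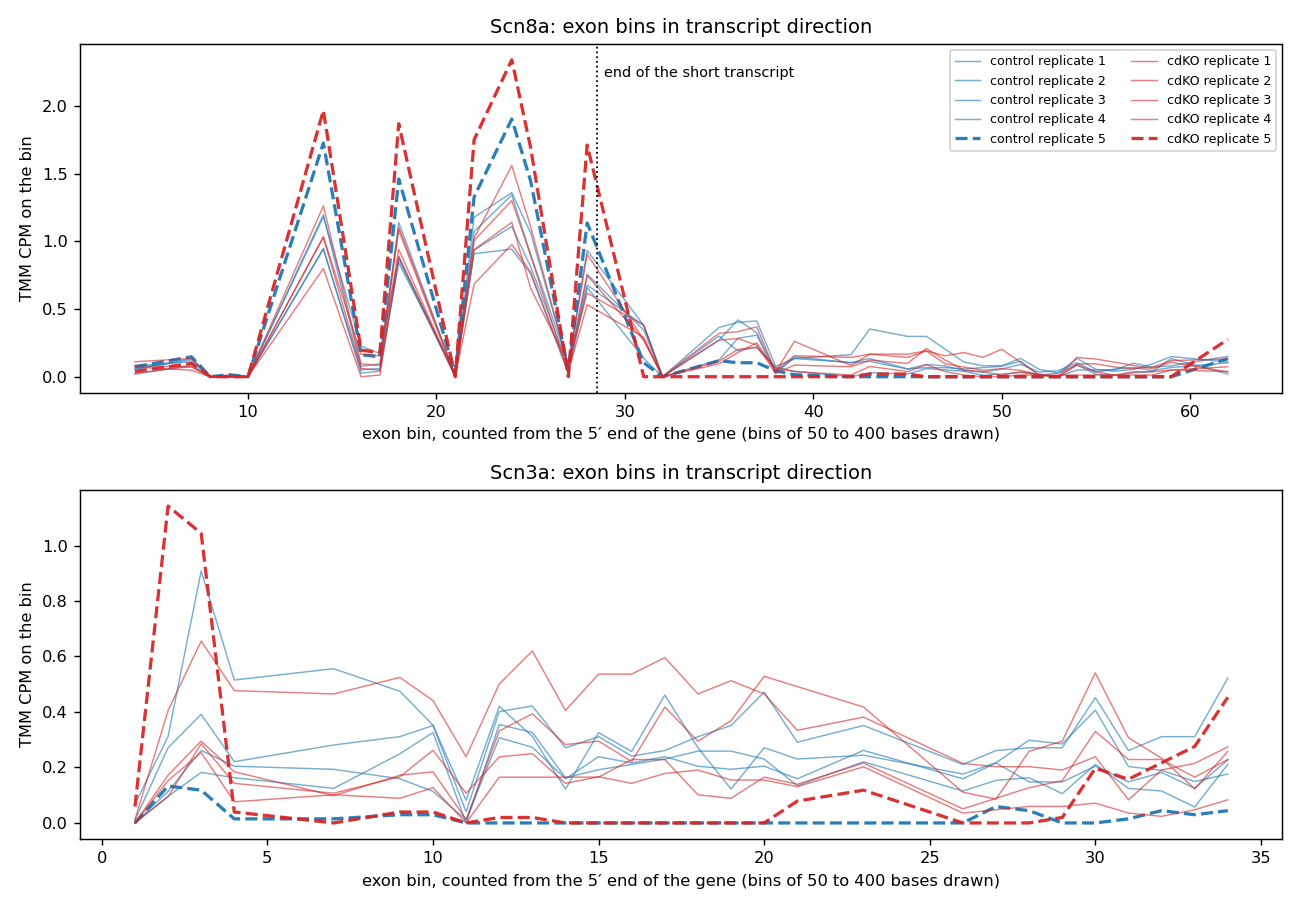
TMM CPM on each exon bin of 50 to 400 bases of Scn8a (upper) and Scn3a (lower), in order from the 5′ end, 1 line per sample (control blue, cdKO red, both samples numbered 5 dashed). In Scn8a the counts drop after the end of the short transcript in all 10 samples, whereas in Scn3a the other 8 samples have counts on most middle bins and both dashed lines lie near 0 there.

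Over all 10 samples the upstream exon of the pair held more counts than the downstream one in each of the 4 pores. The share differed between them, from 74.6% in Scn9a to 94.1% in Scn8a. The upstream exon of Scn8a had the most counts. In Scn8a the bin of the upstream exon held 90, 111, 67, 60 and 98 counts in control replicates 1 to 5 and 61, 55, 73, 93 and 86 in cdKO replicates 1 to 5. The bin of the downstream exon, of which 59 bases were counted on their own, held 10, 9, 2, 6 and 3 counts in controls and 3, 8, 2, 7 and 0 in cdKO. The upstream share was 93.5% ± 3.37 in controls and 94.6% ± 4.82 in cdKO (SD, n = 5 each), a difference of 1.08 percentage points (two-sided exact permutation test over samples, p = 0.675). The smallest p that 5 against 5 samples allow is 0.00794. Unequal bin lengths and the small gap between the exons make these shares approximate. Both exons of Scn8a lie before the end of the short transcript, so the shares also cover transcripts that may end there.

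In Scn3a the upstream bin held 35, 34, 10, 26 and 2 counts in controls and 10, 22, 15, 37 and 2 in cdKO, and the downstream bin 4, 0, 1, 6 and 0 in controls and 0, 9, 1, 20 and 0 in cdKO. The pooled upstream share was 90.7% (exact Clopper-Pearson 95% interval 83.9% to 95.3%) in controls and 74.1% (65.2% to 81.8%) in cdKO, where cdKO replicates 2 and 4 held 29 of the 30 downstream counts. In Scn9a, a pore of sensory neurons and other cells, the pooled share was 64.6% (53.0% to 75.0%) in controls and 91.5% (79.6% to 97.6%) in cdKO. Its downstream counts were 13, 1, 8, 6 and 0 in control replicates 1 to 5 (28 in all) and 1, 0, 0, 3 and 0 in cdKO replicates 1 to 5. Scn2a, a pore of young axons, had 25 upstream and 4 downstream counts in all 10 samples. These intervals cover counting error only, and reads are not independent molecules. Since some samples had under 10 counts over both exons of Scn3a, Scn9a and Scn2a, the groups were not tested there. The signs were opposite in Scn3a and Scn9a. Downstream counts lay mostly in cdKO replicates 2 and 4 for Scn3a and in control replicates 1, 3 and 4 for Scn9a.

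**Figure D4:**
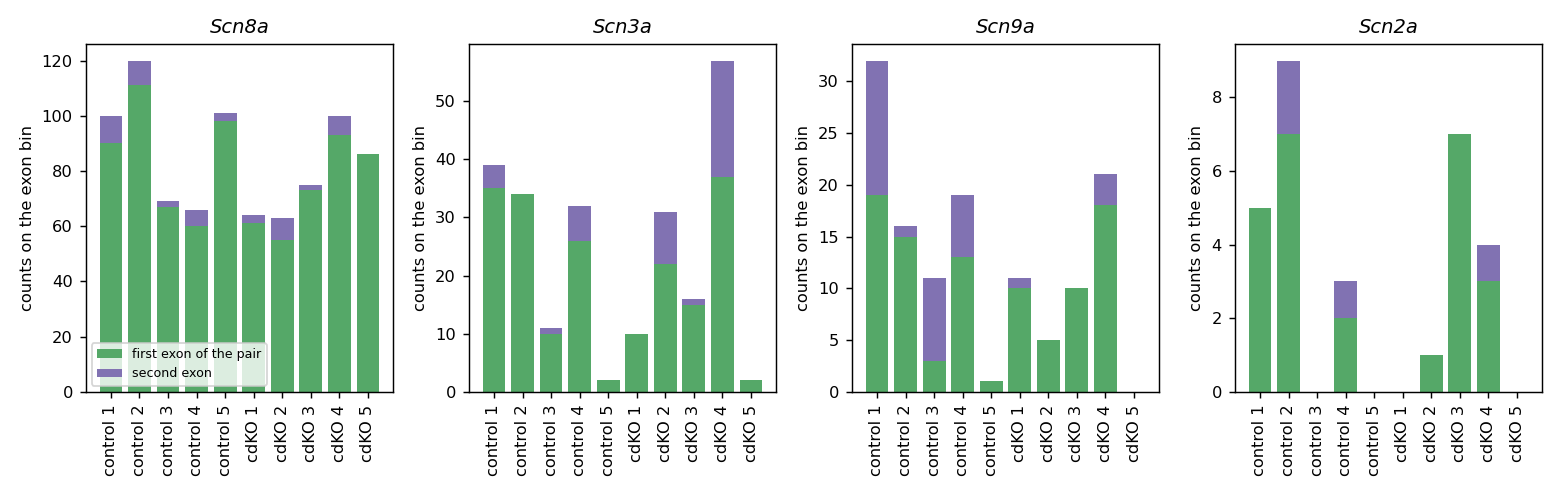
Counts on the upstream exon (green) and the downstream exon (purple) of the alternative pair in 4 sodium pores, stacked per sample. The upstream exon holds most counts in each bar above 0 except that of control replicate 3 in Scn9a (3 of 11), with Scn8a between 63 and 120 counts per sample and the other genes much lower.

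Among calcium pores, pairs of this kind had too few counts to show which exon is used. Over all 10 samples Cacna1b had 0 upstream and 3 downstream counts, and Cacna1c had 0 on both exons. In Cacna1a the upstream exon of a pair of 97 bases (chr8:84614695-84614791) had 0 counts in all 10 samples, and the downstream one (chr8:84615574-84615670) had 33. The bin of the downstream exon is shared with the antisense gene Gm16183 and the library kit does not keep the strand, so those counts may not be of Cacna1a.

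Scn3b and Cacnb3 had the widest swings among the 5 highest genes. Scn3b encodes a sodium channel beta subunit expressed early in neurons, and measured 13, 8.23, 4.64, 5.55 and 0.694 CPM in control replicates 1 to 5 and 15.5, 2.42, 12.4, 8.14 and 10.3 CPM in cdKO replicates 1 to 5. Control replicate 5 was lowest and cdKO replicate 1 highest, a span of 22.3 times, and the groups overlapped with a log2 fold change of 0.60 (SE 0.611, adjusted p = 0.997 in edgeR). The log2 fold change of Scn3b ran from 0.31 without control replicate 5 to 1.03 without control replicate 1, and was 0.28 without both samples numbered 5. Cacnb3, the beta subunit that carries the largest share of the class (ENSMUSG00000003352, chr15:98630840-98644529, plus strand), measured 43.7, 32.6, 18.1, 17.4 and 5.83 CPM in control replicates 1 to 5 and 66.9, 14.1, 35.4, 24.3 and 23.3 CPM in cdKO replicates 1 to 5. The same samples were lowest and highest, 11.5 times apart, with a log2 fold change of 0.48 (SE 0.509, adjusted p = 0.997 in edgeR). Its log2 fold change ran from 0.044 without cdKO replicate 1 to 0.83 without control replicate 1, and was 0.33 without both samples numbered 5. Cacnb3 made up 63.1% to 83.3% of the summed calcium beta level per kb. Cacnb1, best known as the skeletal muscle beta subunit but also made in neurons, measured 12.3, 15.8, 5.82, 9.88 and 2.5 CPM in control replicates 1 to 5 and 22.4, 7.11, 15, 9.39 and 3.78 CPM in cdKO replicates 1 to 5. It was lowest in control replicate 5 and cdKO replicate 5 and gave a log2 fold change of 0.32 (SE 0.523, adjusted p = 0.997 in edgeR).

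The level of neuronal transcripts also differed between samples. The 10 young-neuron markers, all above 3 counts in every sample, summed to 5681, 3642, 2509, 3019 and 1147 CPM in control replicates 1 to 5 and 5250, 1959, 4403, 3443 and 6554 CPM in cdKO replicates 1 to 5. Control replicate 5 was lowest in this list and in Cacnb3, Scn3b and Scn3a, while cdKO replicate 5 was highest in the list but not in Cacnb3 or Scn3b, and second lowest in Cacnb1 (3.78 CPM). Much of the sum in cdKO replicate 5 was Stmn2 (2545 CPM) and Gap43 (1175 CPM). Tubb3 was highest in cdKO replicate 1 (1551 CPM) and Nefl in control replicate 1 (1560 CPM). In cdKO replicate 5 the MN marker sum was the lowest (280 CPM) and the progenitor sum the highest (3682 CPM) of the 10 samples. The V3 interneuron markers summed to 99.7 CPM in control replicate 5 and to 18.5 to 38.7 CPM in the other 9 samples. The part of these differences in the channel values was not tested, and in bulk RNA fewer neurons and less RNA per neuron cannot be told apart.

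**Figure D5:**
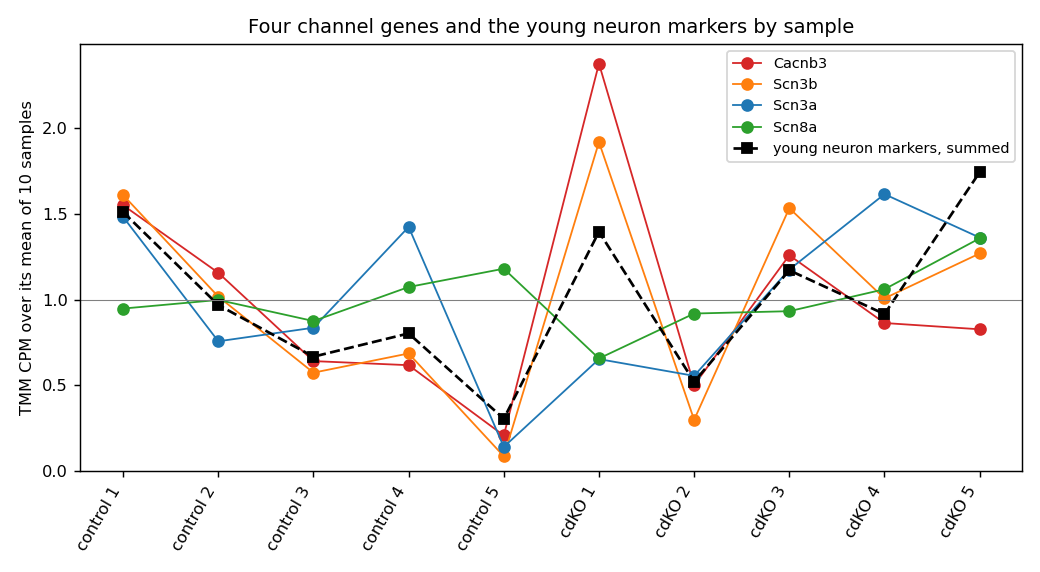
TMM CPM of Cacnb3, Scn3b, Scn3a and Scn8a and the summed young-neuron markers in each of the 10 samples, each divided by its mean over all samples. Control replicate 5 is lowest for the markers, Cacnb3, Scn3b and Scn3a, whereas Scn8a stays between 9.80 and 20.3 CPM before scaling.

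Cacna1d was the only one of the 26 tested genes at an unadjusted p under 0.05 with all 10 samples. It encodes an L-type pore that opens at comparatively low voltage and supports pacemaking (ENSMUSG00000015968, chr14:30039939-30491455, minus strand). Counts were low: 11, 2, 9, 11 and 2 in control replicates 1 to 5 and 22, 45, 7, 27 and 23 in cdKO replicates 1 to 5. It passed the filter (minimum count 10) mainly through cdKO, where each count but that of replicate 3 exceeded 10. Among controls only the counts of replicates 1 and 4 exceeded 10, by a small margin. Entry into the test thus favoured a higher value in cdKO, and the p-values below do not allow for this. The gene measured 0.11, 0.0192, 0.102, 0.149 and 0.0295 CPM in control replicates 1 to 5 and 0.279, 0.535, 0.086, 0.322 and 0.453 CPM in cdKO replicates 1 to 5. The cdKO values were above the control mean in 5 of 5 samples, but cdKO replicate 3 lay within the control range. The log2 fold change was 2.01 (SE 0.678, unadjusted p = 0.0106, adjusted p = 0.938 in edgeR), and the two-sided exact permutation test gave p = 0.0317, so the difference did not pass the correction over all genes. A bin shared with the opposite-strand gene Chdh (chr14:30039949-30042366), at the 3′ end, held 45.9% of its counts, 17 in controls and 56 in cdKO. On the other bins the counts were 4, 0, 2, 10 and 2 in controls and 11, 39, 1, 17 and 0 in cdKO, where cdKO replicate 2 gave 39 of 68, and the same exact test gave p = 0.262. The gene did not pass the filter once bins shared with another gene were left out.

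The other high-voltage pores did not pass the threshold. Cacna1a, the P/Q-type pore of the neuromuscular junction, measured 6.02, 3.78, 5.64, 5.61 and 5.42 CPM in control replicates 1 to 5 and 4.02, 4.87, 6.24, 7.33 and 9.63 CPM in cdKO replicates 1 to 5. Its values lay close together in controls and spread more in cdKO, with a log2 fold change of 0.28 (SE 0.319, adjusted p = 0.997 in edgeR), and a log2 fold change of 0.082 without both samples numbered 5. Bins shared with Gm16183 held 45.9% of its counts. Cacna1b, the N-type pore, measured 6.07, 0.499, 0.819, 0.678 and 1.12 CPM in control replicates 1 to 5 and 4.38, 2.09, 0.528, 0.191 and 3.09 CPM in cdKO replicates 1 to 5. Control replicate 1 and cdKO replicate 1 were high and cdKO replicate 4 was lowest, a span of 31.8 times, with a log2 fold change of 0.16 (SE 0.83, adjusted p = 0.998 in edgeR). Its sign was set by single samples: the log2 fold change was 1.40 without control replicate 1 and -0.33 without cdKO replicate 1. Without both samples numbered 5 it was -0.18. Cacna1c and Cacna1e, another L-type pore and the R-type pore, had means of 0.362 and 1.01 CPM in controls and 0.391 and 0.761 CPM in cdKO.

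The T-type pores Cacna1g and Cacna1h together made up 42.2% to 73.8% of the calcium pore level per kb. Cacna1g measured 4.24, 7.21, 3.89, 5.46 and 5.76 CPM in control replicates 1 to 5 and 3.82, 2.27, 5.54, 5.89 and 8.66 CPM in cdKO replicates 1 to 5. The groups overlapped throughout, with a log2 fold change of -0.022 (SE 0.374, adjusted p = 0.999 in edgeR), and a log2 fold change of -0.26 without both samples numbered 5. Cacna1h measured 5.51, 5.3, 3.46, 3.73 and 2.22 CPM in control replicates 1 to 5 and 8.34, 2.93, 4.71, 3.04 and 6.4 CPM in cdKO replicates 1 to 5. It was highest in cdKO replicate 1 and lowest in control replicate 5, with a log2 fold change of 0.33 (SE 0.391, adjusted p = 0.997 in edgeR), and a log2 fold change of 0.070 without both samples numbered 5. Of its counts, 25.7% lay on bins shared with the opposite-strand gene Tpsg1. The third T-type gene, Cacna1i, had at most 1 count in a sample.

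The other sodium pores were low and overlapped between groups: Scn1a measured 2.39 ± 1.19 CPM in controls and 1.62 ± 0.918 CPM in cdKO, Scn2a 2.21 ± 1.46 and 2.99 ± 2.07 CPM, and Scn9a 3.69 ± 2.58 and 2.67 ± 1.49 CPM (SD, n = 5 each). Scn11a, a pore of sensory neurons, stood at 0.213 and 0.292 CPM. Among the remaining calcium beta genes, Cacnb2 measured 3.86 ± 1.17 CPM in controls and 2.69 ± 0.923 CPM in cdKO, with a log2 fold change of -0.52 (SE 0.363, adjusted p = 0.984 in edgeR). Of the cdKO samples 0 of 5 were above the control mean, but the groups overlapped (2.98 to 5.84 CPM in controls, 1.30 to 3.54 CPM in cdKO). Cacnb4 measured 2.82 and 3.13 CPM, and 46.4% of its counts lay on a region shared with the opposite-strand gene A430018G15Rik.

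Of the alpha2delta genes, Cacna2d3 measured 8.22, 5.46, 5.29, 5.93 and 2.97 CPM in control replicates 1 to 5 and 2.65, 5.57, 8.58, 8.33 and 7.6 CPM in cdKO replicates 1 to 5. Control and cdKO values covered nearly the same range, with a log2 fold change of 0.23 (SE 0.381, adjusted p = 0.997 in edgeR), and a log2 fold change of 0.00057 without both samples numbered 5. Cacna2d1, the subunit bound by gabapentin, measured 13.2, 3.09, 9.09, 16.5 and 15.4 CPM in control replicates 1 to 5 and 3.77, 7.98, 6.19, 10.4 and 18.7 CPM in cdKO replicates 1 to 5. Control replicate 2 and cdKO replicate 1 were low and cdKO replicate 5 was highest, with a log2 fold change of -0.29 (SE 0.485, adjusted p = 0.997 in edgeR), and a log2 fold change of -0.58 without both samples numbered 5. Cacna2d2 was at 0.703 CPM in controls and 0.533 CPM in cdKO.

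Of the gamma genes, several of which encode partners of AMPA receptors rather than of calcium channels, Cacng4 was the most abundant. It measured 9.94, 5.06, 1.78, 2.47 and 3.25 CPM in control replicates 1 to 5 and 3.34, 3.09, 7.69, 7.67 and 16 CPM in cdKO replicates 1 to 5. cdKO replicate 5 was highest and control replicate 3 lowest, with a log2 fold change of 0.74 (SE 0.545, adjusted p = 0.997 in edgeR), and a log2 fold change of 0.16 without both samples numbered 5. Cacng5 measured 1.62, 2.33, 1.38, 2.05 and 0.295 CPM in control replicates 1 to 5 and 2.07, 0.631, 0.565, 1.47 and 0.0197 CPM in cdKO replicates 1 to 5. It was highest in control replicate 2 and had 1 count in cdKO replicate 5, with a log2 fold change of -0.69 (SE 0.766, adjusted p = 0.997 in edgeR). The log2 fold change of Cacng5 ran from -1.18 without cdKO replicate 1 to -0.38 without cdKO replicate 5. With the replicate block it was -1.17 (SE 0.558, adjusted p = 0.915 in edgeR). Scn2b, the sodium beta subunit typical of mature axons, measured 0.371, 0.144, 0.102, 0.0542 and 0.487 CPM in control replicates 1 to 5 and 0.343, 0.107, 0.393, 0.334 and 2.09 CPM in cdKO replicates 1 to 5. cdKO replicate 5 stood far above the other 9 samples and gave most of the difference: the log2 fold change was 1.48 (SE 0.814, adjusted p = 0.944 in edgeR) and 0.36 without that sample, or 0.78 without both samples numbered 5, and 86.3% of the counts of Scn2b lay on bins at its 3′ end.

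The genes that anchor, modulate or work beside these channels did not pass the same threshold. Of 37 such genes (ankyrins, spectrins and adhesion molecules of the initial segment, fibroblast growth factor homologous factors, the sodium leak channel complex, RGK and Stac proteins, release-site proteins, kinases and a ubiquitin ligase, HCN channels and calmodulins), 35 were tested. At an adjusted p under 0.05 in edgeR 0 of 35 were called (0% of all genes tested). At an unadjusted p under 0.05, 0 of 35 were higher in cdKO (4.17% of all genes) and 0 of 35 lower (0.813% of all genes). With so few genes, these shares leave little room to differ. The shares over all genes also depended on cdKO replicate 5, without which more genes were lower than higher. The median log2 fold change of the 35 tested genes was 0.079, with 19 above and 16 below 0.

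The promoters gave no common feature for the OC motif. RefSeq promoter windows (250 bases before to 50 after a gene start) were available for 29 of the 36 genes, in 40 windows. The core letters ATTGAT, searched on both strands, occurred in 1 of 40 windows (Scn8a) and in 7.54% of 32851 windows of all genes. The letters ATCGAT occurred in 1 of 40 (Cacna1f) and in 0.925% of all windows. A match is a description of letters and not a binding site.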

How the data were processed

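RNA from FACS-sorted YFP-positive cells was made into libraries with a kit that does not keep the strand and sequenced in pairs. Per the labels and the submitters' processing notes, reads were trimmed with Trimmomatic 0.36, aligned to GRCm38 with STAR 2.5.2b and counted with Subread 1.5.2. The deposited counts are whole numbers per exon bin, 425461 bins per file, with no normalization. Bins were summed per gene over GENCODE M21 symbols, and 3988 bins that several genes cover (1.17% of counts) were left out. Genes were kept with edgeR's filterByExpr (minimum count 10) and tested with edgeR 4.0.16 (TMM, quasi-likelihood, Benjamini-Hochberg). DESeq2 1.42.0, limma 3.58.1 (voom), other scalings, filters and bin sets, a replicate block and leaving out each sample were alternatives. Fits were tested on simulated data, where edgeR called 47 of 94 genes changed 4-fold and 84 of 93 changed 8-fold. Exact permutation tests used log2(CPM + 0.5). Replicates differed by more than sampling noise (chi-square per degree of freedom at least 145), so all 10 samples were counted. Genes given sample by sample were the 2 highest per class per kb and any with an unadjusted p under 0.05 or groups that did not overlap. The titles give e10.5 for all 10 samples, and day numbers that count up through the description fields were not used. Members and lists were chosen with earlier results of these data known. The sequences of the alternative exons are not reported here.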

Additional observations from a re-analysis of the deposited data

Results flagged for a closer look

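In groups of 5 samples, a sample whose gap to its nearest neighbour exceeded Dixon's 95% limit was singled out in 6 cases among 38 groups of values, where chance gives about 1.9. In cdKO replicate 5, Scn2b stood at 2.09 CPM above the rest of its group. In control replicate 2, Cacna1a was low at 3.78 CPM. In control replicate 1, Cacna1b was high at 6.07 CPM. In control replicate 5, the part of Scn8a before the end of the short transcript was high at 15.2 CPM. The share of channel counts on bins at the 3′ end was high at 28.5% in control replicate 5 and at 47.7% in cdKO replicate 5. No explanation was tested.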

How the results depend on the processing

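0 channel genes and 0 partner genes passed an adjusted p under 0.05 in every alternative run, and the calls over all genes were 0 with edgeR as reported, 1 with library size only, 1 with no filter, 1 on bins at the 3′ end, 20 with DESeq2's test, 3 with limma-voom, 4 without both samples numbered 5, and 0 to 4 when each sample was left out. The number of channel genes at an unadjusted p under 0.05 was 1 to 3 when each sample was left out. It was 0 of 25 tested on bins of a single gene, where 688 of all 16056 genes were higher and 137 lower in cdKO. On bins at the 3′ end it was 0 of 16 tested, where 477 of all 16315 genes were higher and 136 lower. Cacna1d did not pass the filter in either of these runs and so was not tested there. The sign of small log2 fold changes turned: Cacna1g to 0.000135 with DESeq2's size factors and to 0.41 on bins at the 3′ end, Cacna2d3 to -0.18 on those bins, Cacna1b to -0.075 with library size only, Scn3a and Cacna1b to -0.18 without both samples numbered 5, and Scn8a to 0.034 on its upstream part. When each sample was left out, Cacna1b ran from -0.33 to 1.40, Cacna1g from -0.27 to 0.17, Scn3a from -0.071 to 0.44, Scn8a from -0.18 to 0.069, Cacnb1 from -0.073 to 0.59, the pore median from -0.087 to 0.33, and the difference in upstream exon share of Scn8a from -0.27 to 2.90 percentage points. The level of Scn8a fell to 0.078 CPM per kb on its longest bin. The log2 fold change of Scn8a moved furthest on bins at the 3′ end, to -0.85 (SE 0.719, adjusted p = 0.9996 in edgeR). Those bins held 2.08% of its counts. The causes were not tested. The settings without both samples numbered 5 and with Scn8a split were chosen after seeing the data. Replicate numbers are those of the sample titles. Same-numbered samples deviated together with correlations of -0.32 to 0.43, above 0.1 in 3 of 5, and 4 of 10 samples correlated best with their own number, so the numbers were not taken as pairs. With the replicate block 0 genes and 0 channel genes were called, and the median log2 fold change was 0.13 over pores and 0.33 over auxiliary subunits. Low counts limit Cacna1d and the exon pairs of Scn2a, Scn3a and Scn9a.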

Other observations

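Rest, which encodes a repressor of neuronal genes and was looked up after the channel values were seen, was at 53.9 CPM in control replicate 5 and at 4.60 to 20.99 CPM in the other 9 samples. Its part in the low channel values of control replicate 5 was not tested. Between 80 and 200 bases of bin length, the mean count on Scn8a bins after the short transcript was 1.25 in cdKO replicate 5 and 1.42 in control replicate 5, and the 30 bins between that end and the last 5 bins held 2 counts in cdKO replicate 5, 42 in control replicate 5 and 138 to 344 in the other samples.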
